A study of Homo sapiens with 4 samples.

Results

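Cassette exons of ubiquitin enzymes, cullins and F-box proteins were described in HEK293T cells with and without RBFOX2. The genes were those whose symbol in the authors' deposited table begins with USP and a digit, UBE2, UBE3, UBE4, UBR and a digit, FBXO, FBXW, FBXL, or CUL and a digit. The rule reads symbols only, but the group was proposed with earlier results of these data known. It gave 121 of the 9172 genes of the table, with 475 of its 31408 events and 424 of its 27483 unique exons. Each event is a cassette exon, which the mature RNA can contain or leave out, together with 1 pair of flanking exons, so the same exon can appear in several events.

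HEK293T cells are a line from human embryonic kidney, and RBFOX2 (RBM9 in the sample titles) is a splicing regulator that binds GCATG in RNA. The study measured ribosome-depleted, strand-specific total RNA in 4 clones: 2 with genotype WT and 2 with genotype RBFOX2 KO. Per the labels, all had been transfected with PX459, a Cas9 plasmid, and pgRGFP with guides to either side of RBFOX2. Each clone was expanded from a single sorted cell and genotyped by PCR, so a genotype is represented by 2 clones, and no label says more about how independent they are. The deposited p-values rest on these 4 libraries.

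Ubiquitin is attached to proteins by a cascade. An E1 enzyme activates it, an E2 conjugating enzyme (UBE2 genes) carries it, and an E3 ligase passes it to the substrate. HECT-type E3 enzymes (UBE3 genes), UBR proteins and E4 enzymes (UBE4 genes), which extend chains, act at the last step. Some UBR proteins recognise destabilising N-termini. Cullins are scaffolds of multisubunit E3 ligases, and in the CUL1 (SCF) complexes an F-box protein binds the substrate. USP enzymes remove ubiquitin again. Some symbols matched by name without having that activity: UBE2V1 and UBE2V2 are E2 variants without a catalytic cysteine, UBE2F carries NEDD8, USP39 is a splicing factor, and USP6NL is a GTPase-activating protein for Rab proteins.

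The authors' deposited table compares 2 sets of libraries and lists, per event, the inclusion difference with its p-value and FDR (false discovery rate). Inclusion runs from 0 to 1 and is the part of the junction reads, corrected for form length, that joins the exon to its neighbours. No label or header states which set is WT and which is RBFOX2 KO, so a positive difference below means higher inclusion in the first set and a negative one higher inclusion in the second set, with no genotype attached. The columns that hold values per library are named by set number and match no sample label. They were not read here, so values per clone, the read depth and the spread between clones, from which the deposited values were made, are not shown. In bulk RNA, a shift of inclusion in all cells and a shift in the mix of cells cannot be told apart. The table held 0 events of RBFOX2 itself, so the knockout was not checked in these data.

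An event was called where its FDR was under 0.05 and its difference was 0.1 or more in size. In the authors' deposited table, 19 of the 475 ubiquitin events were called (4%), against 5.15% of all events. The 19 events fell on 19 different exons, 4.48% of the ubiquitin exons, against 5.73% of all exons. They lay in 16 of the 121 genes (13.2%), against 13.7% of all genes. These shares lie near the background of the table. Of the called exons 10 had higher inclusion in the first set and 9 had lower inclusion there. Over the table, 3.08% of all exons were called as higher and 2.65% as lower (2.77% and 2.38% of all events). Among the called ubiquitin exons, 52.6% were higher in the first set (Wilson 95% interval 31.7% to 72.7%, which covers counting error only). Over all called exons this share was 53.7%.

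Differences of ubiquitin events were mostly small. The median absolute difference in the authors' deposited table was 0.039 over the ubiquitin events and 0.048 over all events. At least 0.1 was reached by 110 ubiquitin events (23.2%), against 31.5% of all events. A p-value under 0.05 before adjustment was listed for 41 ubiquitin events (8.63%), against 12% of all events. A p-value of 1 was listed for 244 ubiquitin events (51.4%), and for 51.4% of all events. Among the called exons the median absolute difference was 0.203 for ubiquitin genes and 0.271 for the table.

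**Figure D1:**
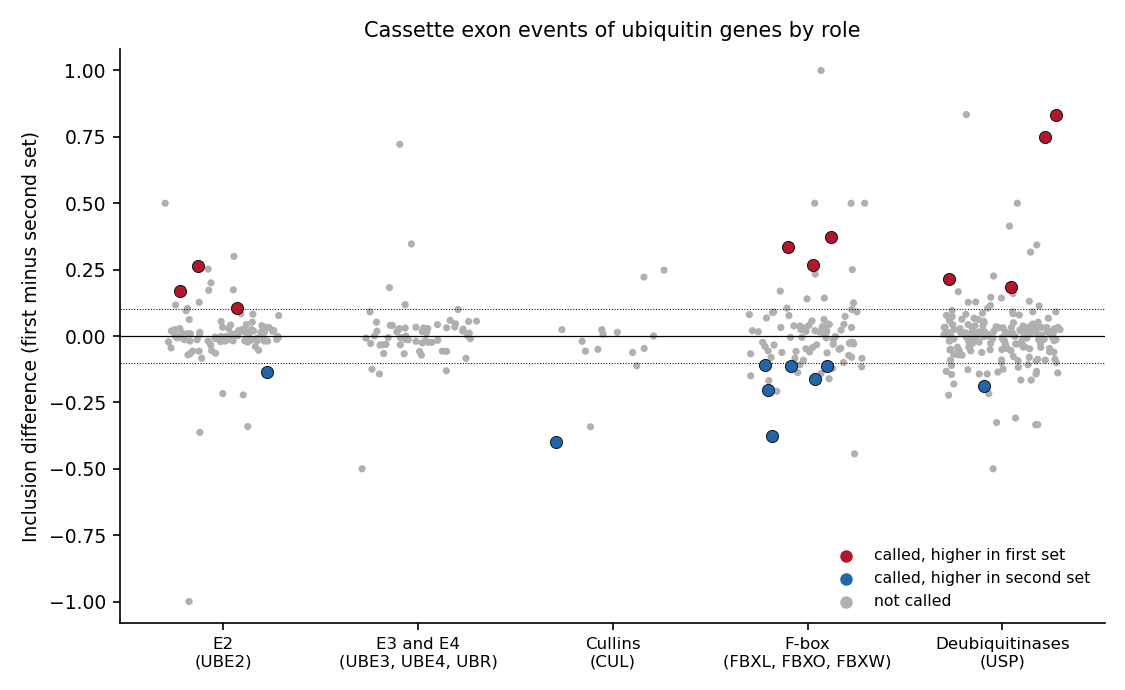
Inclusion difference (first minus second set, vertical axis, no unit) of each of the 475 events, by role of the gene (horizontal axis, points spread sideways for visibility). Red and blue points are called events, grey points are not called, and dotted lines mark differences of 0.1 in either direction; most grey points lie between these lines and no event of the E3 and E4 genes was called.

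Counts by role are set against 5.73% of all exons and 13.7% of all genes called in the table. F-box genes held 9 called exons of 85 (10.6%) in 7 of 30 genes, E2 genes 4 of 82 (4.88%) in 3 of 29 genes, USP genes 5 of 183 (2.73%) in 5 of 43 genes and cullins 1 of 15 (6.67%) in 1 of 7 genes. The UBE3, UBE4 and UBR genes held 0 of 59 in 12 genes. The median absolute difference of all events was 0.064 for F-box genes, 0.05 for cullins, 0.0405 for USP genes, 0.031 for the E3 and E4 genes and 0.021 for E2 genes, against 0.048 for the table. No test compared the roles. RefSeq lists 196 protein-coding symbols that fit the naming rule, and 117 of these had events here: 27 of 36 E2, 12 of 12 E3 and E4, 7 of 8 cullin, 28 of 63 F-box and 43 of 77 USP symbols.

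Among the E2 enzymes, exons of UBE2D3, UBE2J2 and UBE2Z were called. UBE2D3 is an E2 that works with many E3 ligases. Its 150-nt exon (ENSG00000109332; chromosome 4, 103748749 to 103748898, minus strand) differed by 0.265 (p = 4.57e-10, FDR = 8.69e-08) in the authors' deposited table. It matched the second of 7 exons of a GENCODE transcript and lies in its 5′ UTR. The other 4 events of UBE2D3 had differences from -0.013 to -0.002 in the authors' deposited table, so among its events this leader exon stood apart.

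UBE2J2 is an E2 anchored in the membrane of the endoplasmic reticulum that serves the degradation of misfolded proteins there. Both of its called exons matched only transcripts annotated for nonsense-mediated decay, and they went in opposite directions. The 122-nt exon (ENSG00000160087; chromosome 1, 1197649 to 1197770, minus strand) had -0.134 (FDR = 1.07e-06) in the authors' deposited table. A 221-nt form of this exon that shares the end at 1197770 was listed at -0.057 (p = 0.0916) in the authors' deposited table and was not called. Both forms share the junction at 1197770 and the skipping junction, so their values are not independent. A separate 193-nt exon (chromosome 1, 1201478 to 1201670) had 0.107 (FDR = 0.00116) in the authors' deposited table. Paired with an upstream exon whose lower coordinate is 1203242 and not 1203113, the same 193-nt exon was listed at -0.071 (p = 0.0884) in the authors' deposited table, so the sign differed with the flanking exon. The other 6 events of UBE2J2 were not called, and their differences ranged from -0.055 to 0.095 in the authors' deposited table.

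UBE2Z is an E2 charged by the E1 enzyme UBA6. Its exon 3 was listed in a short and a long form with a common start. The 132-nt form (ENSG00000159202; chromosome 17, 46990196 to 46990327, plus strand) had 0.171 (p = 0.000193, FDR = 0.00543) in the authors' deposited table and was called. For the 188-nt form, which ends at 46990383, the authors' deposited table gave 0.055 (p = 0.000342, FDR = 0.00872), so it passed the FDR limit and missed the minimum difference. The long form is fully coding in a protein-coding transcript and the short form was found in a decay transcript alone. The forms differ by 56 nt, which is not a multiple of 3. The called event sets the 132-nt form against skipping. Both forms share the junction with the upstream exon and the skipping junction, so their values are not independent. Reads across the shared upstream junction do not tell the forms apart. The long form is shown so that both can be compared, with the 132 nt they share in lower case and the 56 nt found in the long form alone in capitals (from the GENCODE 29 transcript; GRCh38 chr17:48912834-48913021, plus strand).
UBE2Z exon 3: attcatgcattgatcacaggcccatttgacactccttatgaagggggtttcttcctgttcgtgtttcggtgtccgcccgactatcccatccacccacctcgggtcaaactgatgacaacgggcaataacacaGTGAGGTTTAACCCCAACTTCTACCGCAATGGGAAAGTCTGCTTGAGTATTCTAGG

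The remaining E2 events were not called. UBE2F, the E2 that passes NEDD8 to cullins of the CUL5 type, came closest: a 101-nt exon (chromosome 2, 238925175 to 238925275) had 0.172 (FDR = 0.0945) in the authors' deposited table. A 68-nt form of it, which starts at 238925208, was listed at 0.117 (FDR = 0.627) in the authors' deposited table. The forms have the same end and flanking exons, so their values share junctions and are not independent. UBE2V1, which pairs with UBE2N to build K63-linked chains, had the most events among E2 genes, 11. Their differences in the authors' deposited table ranged from -0.341 to 0.3, and the lowest p-value was 0.0345 (FDR = 0.314).

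No exon of the UBE3, UBE4 or UBR genes was called by the rMATS test of the authors' deposited table. Of their 62 events 3 had a p-value under 0.05 before adjustment. A 203-nt exon of UBE4A (chromosome 11, 118243801 to 118244003) had 0.182 (p = 0.012, FDR = 0.143) in the authors' deposited table with one pair of flanking exons and -0.02 (p = 0.582) with the other. A 97-nt exon of the HECT ligase UBE3B was listed at -0.067 (p = 0.0227) and a 93-nt exon of UBE3D at 0.046 (p = 0.0457) in the authors' deposited table. UBE3C, a HECT ligase that binds the proteasome, had the most events of this role, 10, and all of them lay between -0.033 and 0.033 in the authors' deposited table. The low values of UBE3C do not show that inclusion was equal, since the reads behind them were not used.

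Among the cullins, the 106-nt exon of CUL2 was called. CUL2 is the scaffold of the ligase in which VHL recognises hypoxia-inducible factors. The exon (ENSG00000108094; chromosome 10, 35378824 to 35378929, minus strand) had -0.4 (p = 2.62e-07, FDR = 2.03e-05) in the authors' deposited table, the largest difference towards the second set among the called ubiquitin exons. It matched the second of 22 exons of a GENCODE transcript and lies in the 5′ UTR, and it was the only event of CUL2. CUL3, the scaffold for BTB-domain adaptors, had the most cullin events, 4, which ranged from -0.02 to 0.024 in the authors' deposited table. Named after their values were seen, larger differences without a call were listed in the authors' deposited table for a 43-nt exon of CUL7 (-0.342, p = 0.209), a 91-nt exon of CUL1 (0.248, p = 1) and a 176-nt exon of CUL9 (0.222, p = 0.524).

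F-box genes held the event with the lowest p-value of all ubiquitin genes. FBXW7 is the substrate receptor for cyclin E, MYC and NOTCH proteins and is transcribed from several first exons. Its 93-nt exon (ENSG00000109670; chromosome 4, 153456093 to 153456185, minus strand) had -0.375 in the authors' deposited table, with p and FDR listed as 0. It matched the second of 14 exons of a GENCODE transcript and lies in the 5′ UTR, between introns of 93 and 122411 nt. The next exon of the same leader, of 50 nt, was not called: it had -0.208 (p = 0.226) in the authors' deposited table when spliced to the 93-nt exon and 0.169 (p = 0.655) when spliced past it. All 3 events of FBXW7 lay in this leader.

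FBXW11 (beta-TrCP2) is the substrate receptor for phosphorylated IκB and beta-catenin. It had 2 called exons near its 5′ end, and the first set had the higher inclusion of both. The 63-nt exon (ENSG00000072803; chromosome 5, 171341347 to 171341409, minus strand) had 0.374 (FDR = 2.5e-06) in the authors' deposited table. Upstream of it, the 162-nt exon (chromosome 5, 171423894 to 171424055) had 0.337 (FDR = 0.000132) in the authors' deposited table. Both values are for splicing between the same flanking splice sites, at 171337801 and 171433462. They therefore share the same skipping junction, and the calls are not independent of each other. Where each exon was measured with the other as its neighbour, the authors' deposited table gave 0.04 (p = 1) for the 63-nt and -0.108 (p = 0.811) for the 162-nt exon. The 63-nt exon is coding and keeps the frame, while the 162-nt exon matched only transcripts annotated for nonsense-mediated decay and holds the end of their coding sequence. The 63-nt exon is shown in capitals with 20 nt of each neighbouring exon, because it is the included coding segment with the largest called difference among the F-box genes (GRCh38 chr5:171914343-171914405, minus strand). For the 162-nt exon its first 25 bases are shown, with the extended RBFOX element TGCATG in capitals.
FBXW11 63-nt exon: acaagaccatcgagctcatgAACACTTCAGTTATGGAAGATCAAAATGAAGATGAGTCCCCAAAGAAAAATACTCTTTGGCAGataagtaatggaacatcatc
FBXW11 162-nt exon, bases 1 to 25: ttaccgaagTGCATGtttgggattt

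FBXL4, a mitochondrial F-box protein that restrains mitophagy, also had 2 called exons, in opposite directions. The 72-nt exon (ENSG00000112234; chromosome 6, 99328429 to 99328500, minus strand), exon 7 of 9, had 0.268 (FDR = 0.00141) in the authors' deposited table. Exon 4 of 9, of 346 nt (chromosome 6, 99365250 to 99365595), had -0.162 (FDR = 0.0186) in the authors' deposited table. Both are fully coding, and of these the 72-nt exon keeps the frame and the 346-nt exon does not. The frame-keeping exon is shown in capitals with 20 nt on either side (GRCh38 chr6:98880553-98880624, minus strand).
FBXL4 72-nt exon: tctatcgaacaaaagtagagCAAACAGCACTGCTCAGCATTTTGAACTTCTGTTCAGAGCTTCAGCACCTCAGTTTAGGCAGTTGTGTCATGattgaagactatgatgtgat

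FBXL12 had a called coding exon of 73 nt, exon 2 of 3 (ENSG00000127452; chromosome 19, 9929221 to 9929293, minus strand), at -0.203 (FDR = 0.00768) in the authors' deposited table. With an upstream exon whose lower coordinate is 9929430 and not 9929404, the same exon was listed at 0.024 (p = 0.713) in the authors' deposited table. FBXO41, an F-box protein of neurons, had 1 event, a 74-nt coding exon (ENSG00000163013; chromosome 2, 73493021 to 73493094, minus strand). It had -0.109 (p = 8.37e-13, FDR = 3.13e-10) in the authors' deposited table, which is close to the minimum difference and has the second lowest p-value of the ubiquitin events. Neither exon keeps the frame. Both are shown in capitals with 20 nt on either side, since they are the coding exons higher in the second set that shift the frame at a short length (GRCh38 chr19:9818545-9818617 and chr2:73265893-73265966, minus strand).
FBXL12 73-nt exon: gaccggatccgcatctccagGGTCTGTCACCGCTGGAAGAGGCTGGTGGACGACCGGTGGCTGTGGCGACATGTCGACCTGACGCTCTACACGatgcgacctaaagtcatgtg
FBXO41 74-nt exon: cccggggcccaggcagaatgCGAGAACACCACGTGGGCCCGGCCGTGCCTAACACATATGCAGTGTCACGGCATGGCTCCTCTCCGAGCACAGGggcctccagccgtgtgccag

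FBXL5 senses iron and directs the degradation of iron regulatory proteins. Its 104-nt exon (ENSG00000118564; chromosome 4, 15643147 to 15643250, minus strand) had -0.114 (FDR = 0.000848) in the authors' deposited table. Its match was a decay transcript whose coding sequence ends in the exon. FBXO18, now named FBH1, combines an F-box with a DNA helicase and had the most F-box events, 10. Its 70-nt exon (ENSG00000134452; chromosome 10, 5947181 to 5947250, plus strand) had -0.112 (FDR = 0.0017) in the authors' deposited table and matched only a noncoding transcript. The other 9 events of FBXO18 ranged from -0.116 to 0.143 in the authors' deposited table, with p-values from 0.3 to 1.

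**Figure D2:**
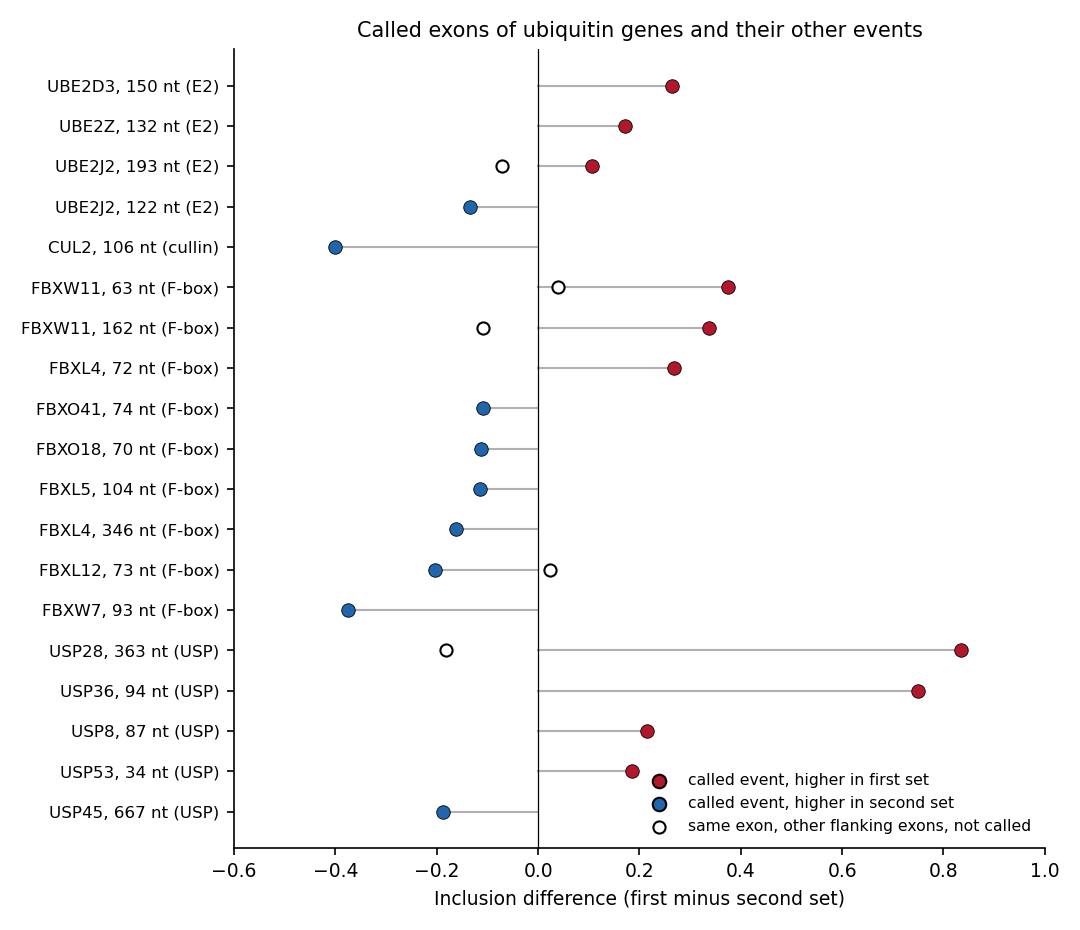
Inclusion difference (first minus second set, horizontal axis, no unit) of the 19 called exons, 1 line each, with the gene, exon length and role. Filled points are called events (red higher in the first set, blue higher in the second set), and open points are events of the same exon with other flanking exons, of which 4 of 5 lie on the other side of 0; the farthest points are USP28 at 0.834 and CUL2 at -0.4.

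Among the USP enzymes, 5 exons in 5 genes were called, and those of USP28 and USP36 had the largest differences of all called ubiquitin exons. USP28 stabilises MYC and takes part in the DNA damage response. Its 363-nt exon (ENSG00000048028; chromosome 11, 113745239 to 113745601, minus strand) had 0.834 (p = 4.31e-06, FDR = 0.000225) in the authors' deposited table when spliced to a downstream exon whose upper coordinate is 113712490. With 113725057 in its place, the same exon was listed at -0.181 (p = 0.497) in the authors' deposited table. A 284-nt form of it had -0.334 (p = 0.364) in the authors' deposited table. The called event matched no GENCODE transcript by structure, while the other event matched one in which the exon holds the start of the coding sequence.

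USP36 is a nucleolar deubiquitinase needed for ribosome production. Its 94-nt exon (ENSG00000055483; chromosome 17, 76793868 to 76793961, minus strand) had 0.75 (p = 0.00142, FDR = 0.0276) in the authors' deposited table and was found in a decay transcript alone. A neighbouring 178-nt exon of USP36 (chromosome 17, 76792399 to 76792576) with the same flanking exons had 0.834 at a p-value of 1 in the authors' deposited table. Differences of this size were therefore listed in the same gene with and without a call. Both events share the same skipping junction, so these differences are not independent of each other. A 117-nt form of the 94-nt exon (76793868 to 76793984), measured next to the 178-nt exon, had -0.143 (p = 0.623) in the authors' deposited table. Its sign was opposite to that of the called form. The 5 events of USP36 at positions 76795749 and above ranged from -0.03 to 0.032 in the authors' deposited table.

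USP8 deubiquitinates receptors on endosomes. Its 87-nt exon, exon 12 of 20 (ENSG00000138592; chromosome 15, 50776472 to 50776558, plus strand), had 0.214 (p = 2.35e-09, FDR = 3.54e-07) in the authors' deposited table. It had the lowest p-value of the USP genes, is fully coding and keeps the frame. The other 7 events of USP8 were not called, with differences from -0.334 to 0.082 and p-values from 0.533 to 1 in the authors' deposited table. The exon is shown in capitals with 20 nt of each neighbour as the coding segment whose inclusion differed (GRCh38 chr15:50484275-50484361, plus strand).
USP8 87-nt exon: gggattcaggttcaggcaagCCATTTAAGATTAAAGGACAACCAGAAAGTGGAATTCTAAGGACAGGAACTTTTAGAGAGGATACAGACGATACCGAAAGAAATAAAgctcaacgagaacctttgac

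USP53 is a protein of tight junctions. Its 34-nt exon (ENSG00000145390; chromosome 4, 120187455 to 120187488, plus strand) had 0.185 (FDR = 0.0201) in the authors' deposited table and was the only called ubiquitin exon of at most 51 nt, out of 28 of that length (175 of 1979 in the table). It matched a transcript annotated for nonsense-mediated decay, whose coding sequence ends in it. A 122-nt exon in the 5′ UTR of USP53 (chromosome 4, 120156445 to 120156566) had 0.316 (FDR = 0.0837) in the authors' deposited table and missed the FDR limit. USP45, which acts on the repair factor ERCC1, had a 667-nt coding exon (ENSG00000123552; chromosome 6, 99893673 to 99894339, minus strand), exon 14 of 18, at -0.188 (p = 0.00292, FDR = 0.0483) in the authors' deposited table, just inside the FDR limit. USP10 had the most events of all ubiquitin genes, 16. None was called, and its lowest p-value in the authors' deposited table was 0.019 for a 61-nt coding exon at 0.078. The 8 events of USP39 ranged from 0.006 to 0.032 in the authors' deposited table.

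**Figure D3:**
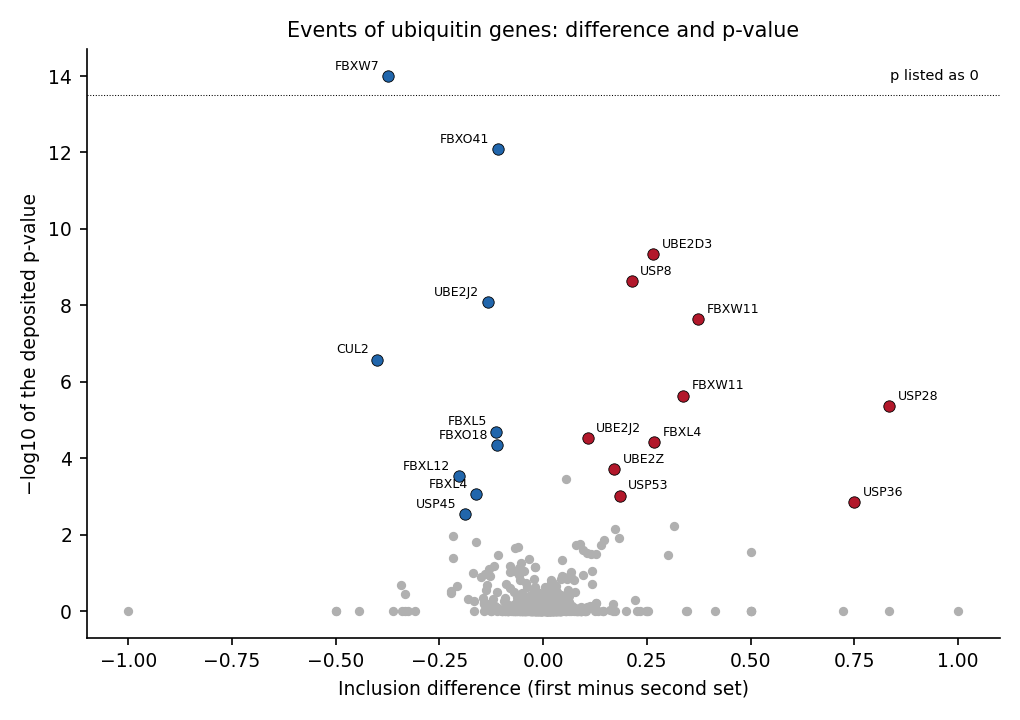
Inclusion difference (first minus second set, horizontal axis) against −log10 of the deposited p-value (vertical axis) for the 475 events. Called events are coloured and named, FBXW7 with a p-value listed as 0 is drawn above the dotted line, and grey points at large differences and a p-value of 1 are events without a call.

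A large difference was often listed without a call. In the authors' deposited table, 13 ubiquitin events differed by 0.5 or more in size, with 2 called (15.4%, against 15.7% of all events of that size). The other 11 lay in 11 genes, and 10 of them had a p-value of 1. They include the 114-nt exon of FBXL5 at 1 and the 59-nt exon of UBE2K at -1, both named after their values were seen. The event of FBXW4, a 96-nt coding exon at 0.5, had a p-value of 0.0286 (FDR = 0.274) in the authors' deposited table. Exactly 0.5 in size was listed for 7 ubiquitin events, and none of these was called. Besides the UBE2Z, UBE2F and USP53 exons given above, no ubiquitin event missed only 1 limit by the margins used here (an FDR from 0.05 to 0.1, or a difference under 0.1).

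The shortest exons of the group were 27 nt long. A 27-nt exon of USP13 had -0.048 and a 27-nt exon of FBXO25 had 0.044 in the authors' deposited table, each with a p-value of 1. A length of 51 nt or less was found for 6.6% of the ubiquitin exons and 7.2% of all exons of the table, and for 5.26% and 11.1% of the called exons, respectively.

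Called ubiquitin exons were compared with GENCODE 29 by structure, that is by the length of the exon and of the intron on each side. Of the 19 called exons, 7 were fully coding in a protein-coding transcript (FBXL12, both of FBXL4, FBXO41, the 63-nt exon of FBXW11, USP45 and USP8). A further 4 were untranslated or held the coding start (UBE2D3, CUL2, FBXW7 and USP28). Transcripts annotated for nonsense-mediated decay were the only match for 7 (both of UBE2J2, UBE2Z, FBXL5, the 162-nt exon of FBXW11, USP36 and USP53), and 1 matched only noncoding transcripts (FBXO18). The exons of decay transcripts were higher in the first set in 5 of 7 cases and the fully coding exons in 3 of 7. Over all called exons of the table this share was 53.7%, and it was not split by annotation. A difference in direction between annotations was not tested.

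The share called varied with this annotation. In the authors' deposited table, 7 of 53 ubiquitin exons found only in decay transcripts were called (13.2%), against 5.77% of such exons in the whole table. Fully coding ubiquitin exons were called in 7 of 263 cases (2.66%), against 5.09% in the table. Exons in or reaching into a UTR were called in 4 of 54 cases (7.41%), against 8.52%. Exons of noncoding transcripts were called in 1 of 26 cases (3.85%), against 6.23%, and 0 of 28 without a match were called, against 5.4%. The USP28 exon is counted with the UTR exons through its event that was not called, since its called event had no match. Among the called decay exons, the UBE2Z exon and the 122-nt UBE2J2 exon share junctions with longer forms. The 162-nt FBXW11 exon shares its skipping junction with the called coding 63-nt exon. These values are therefore not independent of those of other listed exons. The shares above are counts of few exons, and no test of the difference was run.

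**Figure D4:**
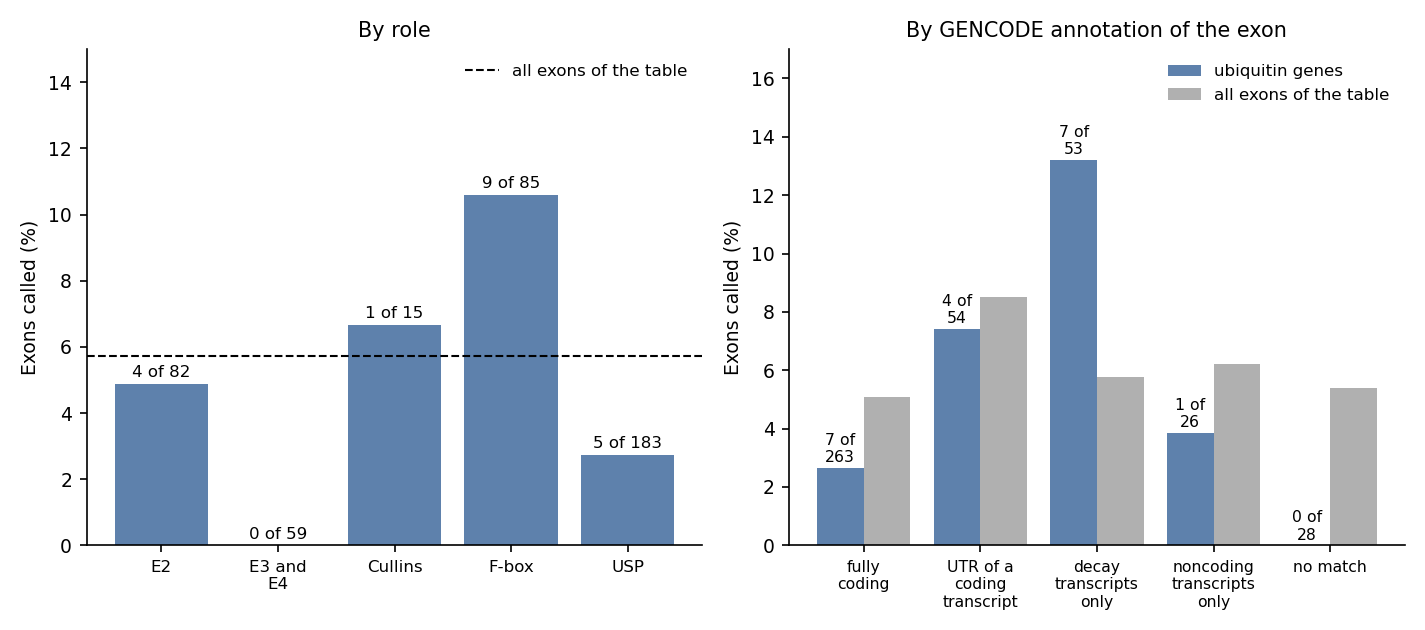
Percent of exons called (vertical axes) by role of the gene (left, dashed line at 5.73% for all exons of the table) and by GENCODE annotation of the exon (right, ubiquitin genes in blue and all exons of the table in grey). Numbers above the bars give called and total ubiquitin exons; the tallest bars are F-box genes at 10.6% and decay transcripts at 13.2%.

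Of the called ubiquitin exons 8 of 19 (42.1%) had a length divisible by 3, against 37.5% of all ubiquitin exons, 46% of the called exons of the table and 40.7% of all its exons. Of the called fully coding exons 42.9% had such a length in ubiquitin genes and 57% in the table. Fully coding exons with such a length numbered 112 of 263 in ubiquitin genes (42.6%), and their share was 46.2% over the table. The median length was 104 nt for called ubiquitin exons, 120 nt for all ubiquitin exons and 117 nt for all exons. Introns next to ubiquitin exons had a median length of 2972 nt before and 2674 nt after the exon, against 2152 and 2016 nt. For called exons these medians were 1953 and 4825 nt in ubiquitin genes, against 2442 and 2401 nt in the table.

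The RBFOX element was searched in exon sequences, on the RNA strand only, since sequences of the flanking introns were not used here. GCATG was present in 44 of 396 ubiquitin exons with a sequence (11.1%) and in 11.6% of all exons. Between 50 and 200 nt of length the shares were 9.78% and 9.93%. Among the 19 called exons 3 held GCATG (15.8%, against 146 of 1429 called exons with a sequence in the table, 10.2%). The 74-nt exon of FBXO41 held it at base 51 and the 363-nt exon of USP28 at base 193. In the 162-nt exon of FBXW11 it is part of TGCATG from base 10. TGCATG was rarer: 7 ubiquitin exons (1.77%) and 3.2% of all exons held it. Of the called exons, 1 of 19 in ubiquitin genes (5.26%) and 3.5% in the table held it. A match is a description of the letters and not a binding site.
FBXO41 74-nt exon, bases 41 to 65: cagtgtcacgGCATGgctcctctcc
USP28 363-nt exon, bases 183 to 207: ggcaatttgaGCATGtcttctagtg

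Other genes of the ubiquitin system were read from 8 lists, also drawn up with earlier results known, and the called share of each lay below that of the table. Of 668 exons in 194 genes with events, 23 were called (3.44%, against 5.73% of all exons), 12 with a positive and 11 with a negative difference. The HECT and RING E3 ligases held 11 of 215 (5.12%), partners of cullins and SCF complexes 5 of 115 (4.35%), other deubiquitinases 3 of 60 (5%), the NEDD8 cycle 2 of 63 (3.17%), p97 with its shuttle factors 1 of 59 (1.69%) and the proteasome 1 of 110 (0.909%). The 40 exons of E1 enzymes and the 6 of ubiquitin genes held no call by the rMATS test, and 4 and 0 of their events, respectively, had a p-value under 0.05 before adjustment.

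All 23 called exons of these lists are given here, with their differences from the authors' deposited table. In the NEDD8 cycle, NEDD8, the modifier that activates cullins, had an 86-nt exon at -0.426 that matched noncoding transcripts only. COPS7A, a subunit of the COP9 signalosome that removes NEDD8, had a fully coding 76-nt exon at 0.158. Among the cullin partners, the authors' deposited table gave 0.428 for a KLHL20 exon (noncoding transcripts only) and -0.451 for a KLHL13 exon (UTR), both in adaptors of CUL3. DCAF proteins are substrate receptors of CUL4 ligases, and the authors' deposited table gave 0.12 for a coding exon of DCAF11, 0.142 for a coding exon of DCAF8 and 0.183 for a DCAF8 exon of decay transcripts.

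Among the HECT and RING ligases, 5 coding exons were called. In the authors' deposited table they had -0.584 in NEDD4L, -0.185 in TRIP12, -0.163 in ANAPC10, 0.125 in ANAPC7 and 0.22 in BIRC6. NEDD4L and TRIP12 are HECT ligases, and ANAPC7 and ANAPC10 are subunits of the anaphase-promoting complex. UTR exons of XIAP and MARCH7 had 0.2 and 0.205 in the authors' deposited table. Exons without a GENCODE match had -0.5 in the p53 ligase MDM2, -0.458 in MARCH7, -0.305 in HUWE1 and 0.194 in MARCH6 in the authors' deposited table. Of the other deubiquitinases, CYLD had a UTR exon at -0.599, BRCC3 a coding exon of 17 nt at 0.271 and OTUD3 a coding exon at 0.208 in the authors' deposited table. Coding exons of the proteasome subunit PSMD6 and of the p97 cofactor UFD1L were listed at -0.428 and -0.216 in the authors' deposited table.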

How the data were processed

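A single table was deposited, named as the skipped-exon output of rMATS from junction reads. Per the submitters' processing notes, STAR 2.7.3a and hg19 were used; the rMATS version and annotation are not given in the sources used here. Positions are those of the table (hg19 per those notes), with 1-based starts. The deposited p-values and q-values (FDR) test a difference between 2 sets of libraries, per the file headers. The deposited inclusion difference is a score from -1 to 1, read as first minus second set by the rMATS convention. The deposited effective lengths are 94 nt for skipping and 97 to 188 nt for inclusion, so short exons have fewer read positions. The deposited FDR equals a Benjamini-Hochberg adjustment over the table (largest gap 1.11e-16). The 6 columns with values per library match no label and were not used; refits by library were not run.

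Events with the same exon position and strand were counted as 1 exon. Exons were matched to GENCODE 29 (GRCh38) by gene identifier, exon length and both flanking intron lengths, with no coordinate compared (423 of 475 ubiquitin events, 89.1%; 85.1% of all). Sequences come from the matched transcripts, and RefSeq symbols from its GRCh38 gene table. An exon took its best class over its events. Ubiquitin genes and lists were chosen with earlier results of these data known. Named by rule were all called exons with the other events of the same exon, and exons that missed 1 limit. The rule also named the gene with most events per role, exons of at most 27 nt and called exons of the lists. Further events of genes with a called exon are outside this rule and are given only in part. Other named exons (of UBE3B, UBE3D, UBE4A, CUL1, CUL7, CUL9, UBE2K, FBXW4 and USP39) were chosen after their values were seen. No test compared the group with other genes. The scripts that apply the call rule were tested on simulated data, which does not test the deposited p-values. Scripts ran in Python 3.11.15 with scipy 1.17.1, matplotlib 3.10.9, numpy 2.4.6 and pandas 2.3.3.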

Additional observations from a re-analysis of the deposited data

How the results depend on the processing

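The 19 called events and 19 called exons in 16 genes fell by more than 1.5 times under 2 settings. A minimum difference of 0.2 left 10 events and 10 exons in 9 genes (3.95% of exons over the table), and a Bonferroni correction over the table left 7 events and 7 exons in 7 genes (1.68% over the table). An FDR under 0.01 kept 15 of the 19 exons (3.91% over the table; without USP36, USP53, USP45 and the 346-nt exon of FBXL4), and an FDR under 0.1 gave 21 (6.87% over the table), adding UBE2F and a second USP53 exon. Without a minimum difference 20 exons passed (6.78% over the table), adding the long form of UBE2Z. The count of 19 exons was unaltered without readthrough and pseudogene symbols, without differences of exactly 0.5 or 1, and with each exon's p-value corrected for its events; 1 exon per gene gave 16. The share higher in the first set ranged from 42.9% (Bonferroni, 3 of 7, with 58.1% over the table) to 70% (minimum difference 0.2, 7 of 10, with 51.5% over the table). The settings reuse most of the same few exons, so the interval given for 52.6% cannot judge this range. Leaving out each library was not run, since the library columns match no sample. No paired analysis was possible because none of the columns used here shows a replicate. How far 1 clone decides a call, and the depth behind it, was therefore not examined.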
